A study of Mus musculus with 6 samples.

Results

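Transcripts of 8 genes of the RAS-RAF-MEK-ERK cascade were followed in the hearts of mice given trametinib, a drug that inhibits the kinases MEK1 and MEK2. The genes were Sos1, Ksr1, Araf, Braf, Pebp1, Map2k1, Map2k2 and Mapk3, matched by symbol in the table of 21705 genes, and all 8 were among the 13581 that were tested because their values averaged 10 or more. They were chosen by how their levels differed between these same trametinib and vehicle libraries, so their fold changes and calls describe these hearts and are not independent evidence. The hearts were from female FVB wild-type animals, 12 to 16 weeks old, that received vehicle or 3 mg/kg of trametinib once daily for 14 days. Each arm had 3 hearts, 1 per library, and the table heads the control columns as PBS.

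In this cascade the exchange factor SOS loads RAS with GTP, and active RAS recruits RAF kinases to the membrane. RAF phosphorylates MEK1 and MEK2, which phosphorylate the ERK kinases, while KSR scaffolds hold RAF, MEK and ERK together and the RAF kinase inhibitor protein encoded by Pebp1 keeps RAF from MEK. In heart muscle the cascade is known for its part in growth of cardiomyocytes and in their survival under stress. Trametinib acts on the MEK proteins, so transcript levels do not measure how far the kinases were inhibited.

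Values are counts per gene that the authors scaled to a common upper quartile, here called normalized counts. Estimated depth was 14304826 to 16046500 reads in vehicle and 23033856 to 24691501 in trametinib libraries, so depth went with treatment. All 11 ventricular cardiomyocyte markers were detected, 3 of them higher and 8 lower with trametinib. Their summed level was 2577781 to 2660159 in vehicle hearts, against 2352970 to 2462826 after the drug. The higher ventricular markers had a median transcript length of 6060 nt and the lower ones of 1109 nt. After the correction for transcript length and GC content described below, 2 ventricular markers were higher and 3 lower. Markers of other cells differed in how often they passed, where 44.5% of all genes tested did so. The erythroid, neutrophil, atrial and fibroblast lists lay well above that share. The endothelial and smooth muscle lists lay near it, and the macrophage, adipocyte and lymphocyte lists below it. Of 5 tested erythroid markers 4 rose, with sums of 19814 to 27341 against 54941 to 194142. Of 9 neutrophil markers 8 rose, with sums of 233 to 792 against 2115 to 6682. All 4 atrial markers passed as lower, with sums of 6723 to 11661 against 544 to 3724. The arms of Myl7 overlapped, with 1263 in trametinib replicate 1 against 126.6 and 95.86 in the others of its arm and 1122 to 1748 in vehicle hearts. Myl4 was likewise high in that heart (1467 against 163.2 and 122.1), and both passed in only 1 of the 6 fits that left out a heart, the one without trametinib replicate 1. After the length and GC correction 2 of the 4 atrial markers were lower, and Myl4 (limma adjusted p = 0.0936) and Myl7 (limma adjusted p = 0.178) no longer passed. Of 10 fibroblast markers 6 fell and 2 rose, with sums of 83595 to 106940 against 57182 to 61666. Of 9 macrophage markers 3 fell, endothelial markers had 2 higher and 2 lower of 8 and smooth muscle markers 3 higher and 1 lower of 8, and none of 5 adipocyte or 2 lymphocyte markers passed. After the length and GC correction, under which 28.9% of all genes passed, 4 erythroid and 8 neutrophil markers were higher. Fibroblast markers then had 7 lower and 1 higher, macrophage and endothelial markers 2 lower each, and smooth muscle markers 2 higher and 1 lower. None of the markers was listed at 0 in every heart, and their part in the values below was not tested. In whole-heart RNA, fewer cells of a type and less RNA per cell cannot be told apart. Trametinib replicate 3 lay farthest out on the first principal component, at 56.9 against 27.4 and 30.6 for the others of its arm, and the values below are given without it where that changes a call.

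The promoter windows of Pebp1 and Ksr1 are shown because these genes moved in opposite directions and were the members whose calls held under every setting tried. Each window is the 250 bases before the annotated start in RefSeq on build GRCm38.p6, read 5′ to 3′ on the gene's strand, at chr5:117287565-117287814 (minus strand) for Pebp1 and chr11:79146474-79146723 (minus strand) for the 5′-most of the pair of Ksr1 starts. Capitals mark the GC box GGGCGG on either strand.
Pebp1: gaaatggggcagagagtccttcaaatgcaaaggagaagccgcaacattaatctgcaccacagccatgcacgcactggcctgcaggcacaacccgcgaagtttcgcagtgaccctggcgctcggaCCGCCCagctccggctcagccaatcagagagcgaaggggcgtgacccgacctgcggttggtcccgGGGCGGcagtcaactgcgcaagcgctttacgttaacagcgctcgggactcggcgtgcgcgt
Ksr1: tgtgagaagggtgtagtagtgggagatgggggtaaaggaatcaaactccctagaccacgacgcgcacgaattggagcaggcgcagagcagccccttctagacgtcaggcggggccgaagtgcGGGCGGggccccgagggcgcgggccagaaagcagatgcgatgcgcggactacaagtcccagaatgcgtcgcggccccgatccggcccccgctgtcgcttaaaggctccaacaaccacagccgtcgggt
The Pebp1 window held 2 GC boxes, 24 CpG dinucleotides and 62.8% G and C, and the Ksr1 window 1 GC box, 25 CpG dinucleotides and 64.4% G and C. With the 50 bases after the start included, 7 of the 8 members matched the RefSeq table, with 8 windows in all. The GC box was in 6 of these 8 windows, with both Ksr1 windows among the 6, and in 35.7% of all 32851 windows. The letters CCGGAAG, a core bound by ETS factors, were in 0 of the 8 and in 8.86% of all windows, searched on both strands. The palindrome TGACGTCA, a cyclic AMP response element, was in 1 of the 8, that of Braf, and in 1.79% of all windows. None of these 3 motifs overlapped another in the windows printed. A match is a string of letters and not evidence that a factor binds.

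Of the 8 members 3 were higher with trametinib (Ksr1, Sos1 and Braf), 3 were lower (Pebp1, Araf and Mapk3), and Map2k1 and Map2k2 did not pass an adjusted p of 0.05 in limma's moderated test over all 13581 genes. Across all genes tested 44.5% passed, 21.6% as higher and 22.8% as lower. The arms did not overlap for 7 of the 8 members, where 56.5% of all genes tested had arms that did not overlap. The median size of the log2 fold change, ignoring sign, was 0.34 for the members and 0.34 for all genes tested, so in size the group as a whole lay at the background.

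**Figure D1:**
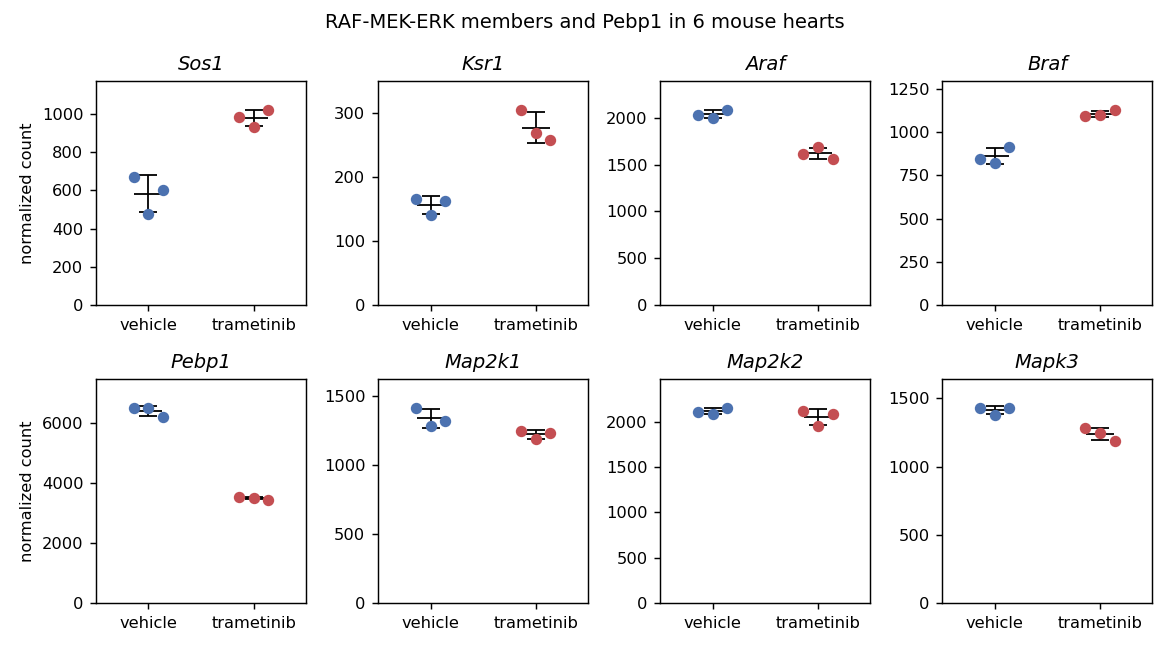
Normalized counts (linear axes from 0) of the 8 members in each of 3 vehicle and 3 trametinib hearts; points are hearts, the long bar is the mean and the capped line the SD. The arms are apart for every member except Map2k2, with the widest gap in Pebp1 (6394 against 3488 on average).

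Upstream of RAS, Sos1, which encodes a guanine nucleotide exchange factor for RAS, had the widest relative spread between vehicle hearts of the 8 members. It measured 669.7, 476.1 and 599.7 normalized counts in the vehicle hearts and 984.4, 931.8 and 1017 in the trametinib hearts. All trametinib hearts lay above all vehicle hearts, although the vehicle values varied by 16.8% (coefficient of variation) against 4.42% in the treated arm. The means were 581.9 ± 98.0 and 977.9 ± 43.2 (SD, n = 3), a ratio of 1.68 and a log2 fold change of 0.76 ± 0.12 (SE; limma adjusted p = 0.00239). With any 1 heart left out the log2 fold change lay between 0.62 and 0.87 and still passed. After correction for transcript length and GC content it was 0.30 ± 0.12 and no longer passed (limma adjusted p = 0.0953).

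Ksr1, a scaffold related to RAF kinases, was the least abundant member and rose most. Its vehicle values were 166.7, 140.2 and 162.8 normalized counts and its trametinib values 304.6, 269.3 and 258.6, with the lowest treated heart well above the highest control. The means of 156.6 ± 14.3 and 277.5 ± 24.1 (SD, n = 3) gave a ratio of 1.77 and a log2 fold change of 0.82 ± 0.12 (SE; limma adjusted p = 0.00146). Its fold change was above that of 94.3% of all genes tested. It remained past the threshold in every setting, with 0.75 to 0.87 when a heart was left out and 0.58 ± 0.11 after the length and GC correction (limma adjusted p = 0.00734).

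The RAF kinases did not move together. Araf, which encodes the A-RAF isoform, measured 2031, 1995 and 2079 normalized counts in vehicle and 1615, 1684 and 1564 in trametinib hearts, so that every treated heart was lower. The means were 2035 ± 41.8 and 1621 ± 60.6 (SD, n = 3), a ratio of 0.797 and a log2 fold change of -0.33 ± 0.06 (SE; limma adjusted p = 0.00279). Braf, which encodes B-RAF, the isoform with the highest basal kinase activity, went the other way. Its values were 845.6, 824.3 and 914.5 in vehicle and 1092, 1100 and 1126 in trametinib hearts. Here too the arms were apart, and the 3 treated hearts were close to each other (coefficient of variation 1.61%). The means of 861.5 ± 47.1 and 1106 ± 17.8 (SD, n = 3) gave a ratio of 1.28 and a log2 fold change of 0.36 ± 0.07 (SE; limma adjusted p = 0.00364). Neither call depended on a single heart. The length and GC correction ended both, taking Araf to -0.13 (limma adjusted p = 0.107) and turning the sign of Braf, to -0.14 (limma adjusted p = 0.0923).

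Pebp1 was the most abundant member and fell most. The vehicle hearts had 6486, 6490 and 6205 normalized counts and the trametinib hearts 3519, 3506 and 3439, so the arms stood far apart and each varied little (coefficients of variation 2.56% and 1.23%). From 6394 ± 164 to 3488 ± 42.9 (SD, n = 3) the ratio was 0.546, with a log2 fold change of -0.87 ± 0.05 (SE; limma adjusted p = 0.000176). Its log2 fold change was below that of all but 5.55% of genes tested, and lay between -0.90 and -0.86 when any 1 heart was left out. After the length and GC correction it was -0.41 ± 0.05 and still passed (limma adjusted p = 0.00154). A phosphatidylethanolamine-binding protein, its product is best known for holding RAF away from MEK.

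The genes for the drug's targets showed the smallest differences. Map2k1, which encodes MEK1, measured 1410, 1276 and 1319 normalized counts in vehicle and 1245, 1184 and 1226 in trametinib hearts. The treated hearts were all lower, but the gap between the closest hearts of the arms was narrower than the spread within the vehicle arm. The log2 fold change was -0.13 ± 0.06 (SE; limma adjusted p = 0.131), with means of 1335 ± 68.4 and 1218 ± 31.1 (SD, n = 3). Map2k2, which encodes MEK2, had 2116, 2086 and 2155 in vehicle and 2119, 1959 and 2089 in trametinib hearts, and its arms overlapped. Its means were 2119 ± 34.3 and 2056 ± 85.2 (SD, n = 3), with a log2 fold change of -0.04 ± 0.06 (SE; limma adjusted p = 0.543). Neither passed with any 1 heart left out, at limma adjusted p = 0.0994 to 0.31 for Map2k1 and 0.476 to 0.906 for Map2k2. After the length and GC correction Map2k1 was at -0.05 (limma adjusted p = 0.576) and Map2k2 at 0.09 (limma adjusted p = 0.229). With another choice of lengths, given below, Map2k2 passed as higher. A p above the threshold does not show that the levels were equal.

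Mapk3, which encodes ERK1, was slightly lower. It measured 1430, 1378 and 1427 normalized counts in vehicle and 1282, 1247 and 1191 in trametinib hearts, with no overlap. The means of 1412 ± 29.5 and 1240 ± 45.7 (SD, n = 3) gave a ratio of 0.878 and a log2 fold change of -0.19 ± 0.06 (SE; limma adjusted p = 0.0337). The call was the weakest of the 6. It was lost without vehicle replicate 1 (limma adjusted p = 0.0791) or 3 (0.0809) and without trametinib replicate 1 (0.0596), 2 (0.0701) or 3 (0.119), and the length and GC correction turned the sign to 0.10 (limma adjusted p = 0.196).

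The members' fold changes followed the length of their transcripts, as did those of all genes. The shortest member, Pebp1 at 1240 nt, fell most, and the members above 5000 nt, which are Ksr1 (5378 nt), Sos1 (8436 nt) and Braf (9728 nt), were the 3 that rose. Map2k1 (2436 nt), Map2k2 (2405 nt), Araf (1939 nt) and Mapk3 (1800 nt) lay between, with fold changes from -0.33 to -0.04 on the log2 scale. Spearman's rho between length and log2 fold change was 0.86 over the 8 members and 0.51 over the 13239 tested genes with a length, as a description, since genes share libraries and are not independent. In each of the 9 pairs of a trametinib and a vehicle heart rho over all genes was 0.42 to 0.51, against -0.17 to 0.22 between hearts of 1 arm. Genes of 1691 nt or shorter had a median log2 fold change of -0.45, and 1541 of 2649 were lower and 126 higher. Those of 4754 nt or longer had a median of 0.35, and 118 of 2648 were lower and 1359 higher. Pebp1 lay in the first of these bins, and Ksr1, Sos1 and Braf in the second. Braf, at 0.36, was close to the median of its bin, whereas Pebp1, Ksr1 and Sos1 lay beyond theirs.

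**Figure D2:**
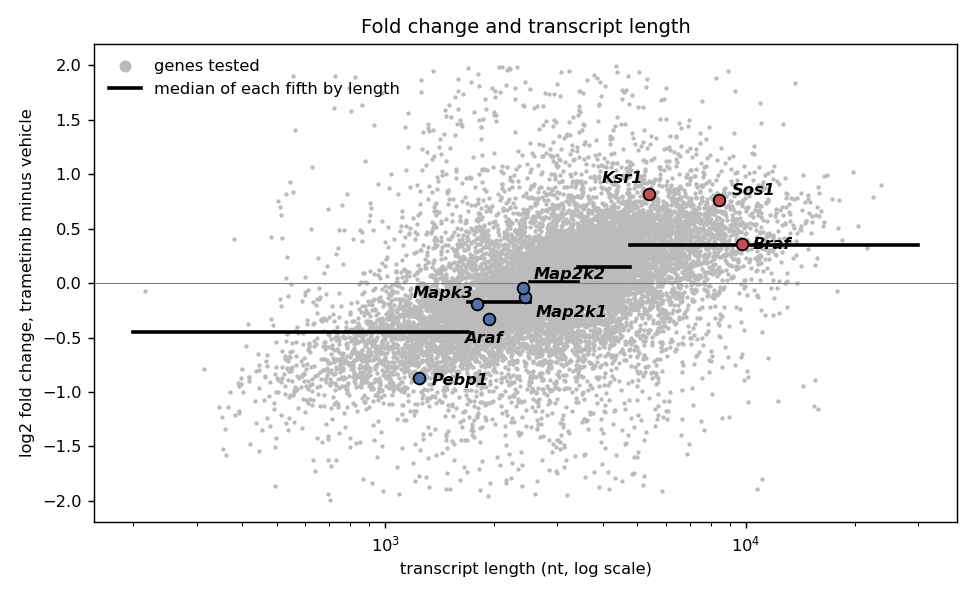
Log2 fold change of genes tested against transcript length (log axis), with the 8 members marked (red, positive; blue, negative) and black lines for the median of 5 bins of equal gene number; 196 of 13239 genes lie outside the axes. Pebp1 sits below the median of the shortest bin (-0.45), and Ksr1 and Sos1 sit above that of the longest bin (0.35).

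When a smooth curve on length and then GC content was taken out of each library, 28.9% of 13239 genes passed, 15.2% as higher and 13.7% as lower. Of the 8 members Ksr1 then passed as higher and Pebp1 as lower, and rho between length and fold change over the members was 0.31. Such a correction cannot separate a change of measurement that follows length from a change of the tissue that follows length. Transcript lengths were those of RefSeq-linked transcripts in GENCODE M21. The mean over all GENCODE transcripts of a gene was also used in their place. Ksr1, Map2k2 (0.21, limma adjusted p = 0.0136) and Mapk3 (0.19, limma adjusted p = 0.0279) then passed as higher and Pebp1 and Araf as lower. The signs of Map2k2 and Mapk3 thus rest on whether length is corrected for. Those of Braf (-0.14 and 0.05) and Map2k1 (-0.05 and 0.10) also differed between these choices of length.

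**Figure D3:**
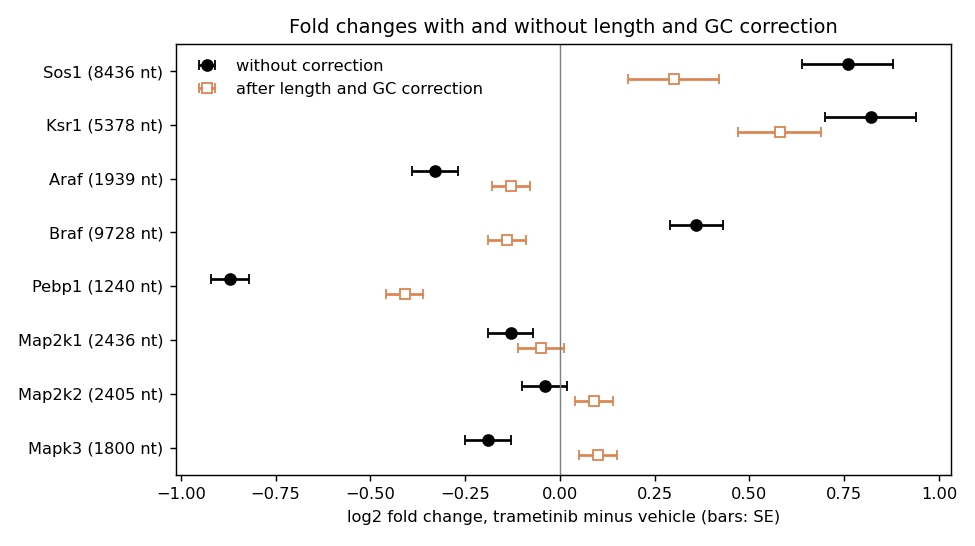
Log2 fold changes (trametinib minus vehicle) of the 8 members, with SE bars, without correction (filled circles) and after length and GC correction (open squares); mean transcript length is given beside each name. Ksr1 (0.82 and 0.58) and Pebp1 (-0.87 and -0.41) keep their side of 0 at some distance, while Braf, Mapk3 and Map2k2 cross it.

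Levels can be set beside each other only per length, so each value was divided by the mean transcript length in kilobases. In vehicle hearts the order of levels per kilobase was Pebp1 (5160 ± 132, SD, n = 3), Araf (1050 ± 21.6), Map2k2 (881 ± 14.3), Mapk3 (784 ± 16.4), Map2k1 (548 ± 28.1), Braf (88.6 ± 4.85), Sos1 (69.0 ± 11.6) and Ksr1 (29.1 ± 2.66). No neighbouring members in that order had overlapping ranges over the 3 hearts. In trametinib hearts Pebp1 stood at 2810 ± 34.6 per kilobase, Map2k2 (855 ± 35.4) and Araf (836 ± 31.2) overlapped, as did Sos1 (116 ± 5.12) and Braf (114 ± 1.83), and Ksr1 remained lowest at 51.6 ± 4.48. These orders rest on the annotated lengths, since no source used here gives the lengths the authors worked with. With the longest transcript in place of the mean, Map2k2 and Araf overlapped in vehicle hearts and Mapk3 and Araf in trametinib hearts.

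Between the MEK genes, Map2k1 held 39.7%, 37.6% and 37.7% of their summed level per kilobase in vehicle hearts and 36.7%, 37.4% and 36.7% in trametinib hearts, the rest being Map2k2. The ranges did not overlap, but the gap was narrow beside the spread of the vehicle hearts. The share follows from the same contrast and the same lengths as the values above, so it is given without a test.

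Genes most like each changed member were sought by the root-mean-square difference over the 6 hearts of log2 values centred on the vehicle mean, among the other 12394 genes with a mean of at least 30. Among the nearest to Ksr1 was Mfhas1 (0.055), and nearest to Sos1 were Map3k4 (0.055) and Taf3 (0.057). Nearest to Pebp1 was 2410015M20Rik (0.021), and nearest to Araf were 2410001C21Rik (0.023) and C030046I01Rik (0.024). Zfp871 (0.014) and Itch (0.017) were nearest to Braf, and Snx12 (0.019) and Arl6ip5 (0.019) to Mapk3. Patterns as flat as those of Mapk3, Araf and Braf were common, with 893, 754 and 816 genes within 0.1 of them, against 139 for Pebp1, 45 for Ksr1 and 35 for Sos1.

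Other genes of the cascade were counted by role in 6 lists with 65 tested genes. Of these 18 were higher, 10 lower and 37 did not pass, which is 43.1% called against 44.5% of all genes, and their median log2 fold change of 0.03 lay near the -0.01 of all genes. The higher ones had a median length of 4574 nt and the lower ones of 1874 nt. After the length and GC correction 8 were higher and 7 lower, where 15.2% of all genes were higher and 13.7% lower.

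Over all genes tested, 21.6% were higher and 22.8% lower. Among the 6 lists, adaptors and exchange factors had the most genes higher, at 7 of 12 with 1 lower. They included Sos2, the paralog of Sos1 (log2 fold change 0.60 ± 0.07, SE, with arm means of 1357 ± 93.5 and 2057 ± 77.5, SD, n = 3), the phosphatase SHP2 gene Ptpn11 (0.50 ± 0.07), the FGF receptor adaptor Frs2 (0.54 ± 0.10) and the exchange factor Rasgrp4 (0.61 ± 0.17). After the correction 3 were higher, Sos2 (0.27), Ptpn11 (0.20) and Rasgrp4 (0.58), and 1 was lower, while Frs2 no longer passed (0.15). Of 6 RAS GTPase genes 2 were higher, among them Nras (0.42 ± 0.09), and Rras (-0.46 ± 0.08) and Rras2 (-0.26 ± 0.09) were lower, and none of the 6 passed after the correction. The Rras2 call was lost in all but 1 of the 6 fits that left out a heart, passing only without trametinib replicate 1, and that of Rasgrp4 was lost without vehicle replicate 2 or trametinib replicate 2 or 3. Among the higher adaptors and exchange factors, Gab2 and Rasgrf2 passed in only 1 of these 6 fits, and Rasgrp3 in 4. Sos2, Ptpn11 and Frs2 passed in all 6. Gab2, Rasgrf2 and Rasgrp3 were named after their values were seen. Of 7 GTPase-activating protein genes, which switch RAS off, 3 were higher, namely Rasa3 (0.34 ± 0.07), Rasal2 (0.39 ± 0.09) and Dab2ip (0.33 ± 0.08). The Dab2ip call was lost without trametinib replicate 1 (limma adjusted p = 0.0584). After the correction none of the 7 was higher and 2 were lower.

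RAF regulators had 2 higher and 3 lower of 18. Shoc2, a subunit of the phosphatase complex that activates RAF, rose by 0.62 ± 0.07 on the log2 scale (SE), with arm means of 829.7 ± 55.1 and 1270 ± 23.0 (SD, n = 3), and the chaperone Hsp90aa1 had 0.63 ± 0.09. The kinase cochaperone Cdc37 (-0.38 ± 0.05) and the phosphatase subunit Ppp1ca (-0.25 ± 0.05) were lower. After the correction 2 of the 18 were higher, Shoc2 (0.47) and Hsp90aa1 (0.55), and 3 were lower, Cdc37 among them (-0.79). The corrected Cdc37 value rests on an annotated length of 7851 nt from 1 transcript, which was not checked in these hearts. Ppp1ca turned to 0.13 and lost its call (limma adjusted p = 0.104). The list of MEK and ERK scaffolds and partners had 1 higher and 4 lower of 11. The MEK1 partner Lamtor3 (-0.45 ± 0.06), its dimer partner Lamtor2 (-0.34 ± 0.10), the scaffold Wdr83 (-0.49 ± 0.09) and the ERK-binding protein Pea15a (-0.48 ± 0.11) were the lower ones. Lamtor2 passed in 2 of the 6 fits that left out a heart, those without vehicle replicate 1 and without trametinib replicate 2. After the correction 1 of the 11 was higher and 1 lower. The higher one was Lamtor2, whose sign reversed (0.42, limma adjusted p = 0.00701), and the lower one Pea15a (-0.40), while Lamtor3 (-0.07) and Wdr83 (-0.03) no longer passed. Of 11 ERK substrate kinase and ETS partner genes 3 were higher and none lower: the ternary complex factor Elk4 (0.47 ± 0.06), the RSK2 gene Rps6ka3 (0.58 ± 0.09) and Srf (0.44 ± 0.08). After the correction Elk4 (0.27) and Srf (0.51) passed, and Rps6ka3 did not (0.15, limma adjusted p = 0.201).

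**Figure D4:**
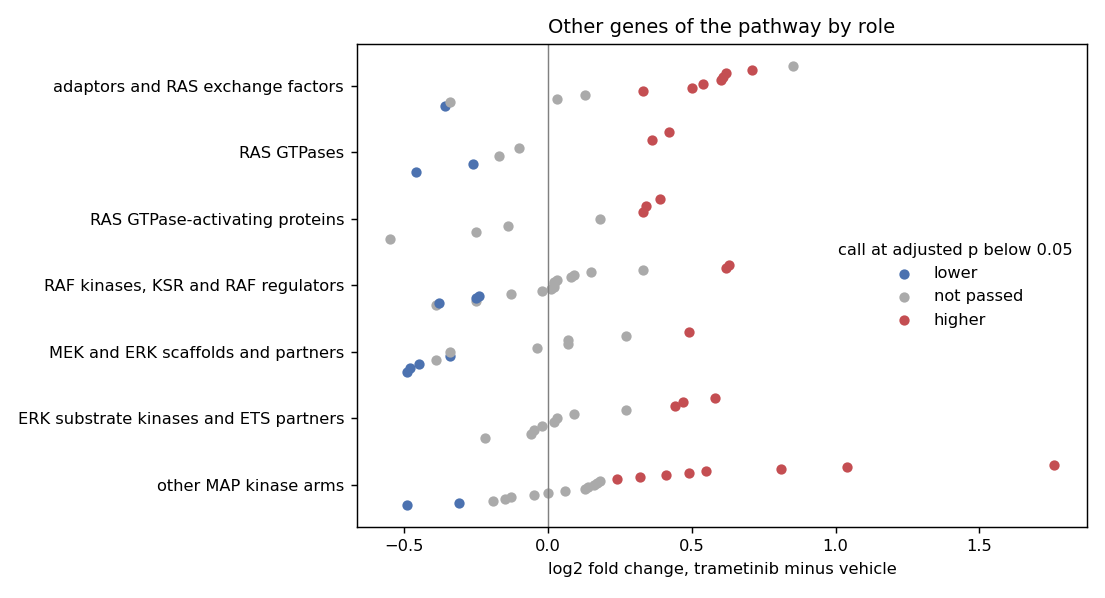
Log2 fold change (trametinib minus vehicle) of each tested gene in 6 lists of the cascade and in 1 list of other MAP kinase arms, coloured by the call at an adjusted p below 0.05. Adaptors and exchange factors have 7 of 12 genes higher, and the scaffold list 4 of 11 lower. The shares over all genes tested were 21.6% higher and 22.8% lower.

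In the neighbouring MAP kinase arms, which serve JNK, p38, ERK5 and atypical kinases, 8 of 21 genes were higher and 2 lower (47.6% called). The atypical kinase gene Mapk4 rose by 1.76 ± 0.19 on the log2 scale (SE; 1.57 after the correction), with arm means of 156.2 ± 31.1 and 530.8 ± 103 (SD, n = 3). Map3k4 (0.81 ± 0.11), Map3k7 (0.41 ± 0.06) and Mapk10 (0.55 ± 0.08) were higher too. After the correction 3 of the 21 were higher and none lower, with Map3k4 at 0.55 still past the threshold and Map3k7 (0.07) and Mapk10 (0.14) no longer so. Of 18 genes that ERK signalling induces 8 were lower and none higher, which is 44.4% called against 44.5% of all genes tested. Of all genes tested 22.8% were lower and 21.6% higher. Etv5 measured 351.4 ± 33.1 in vehicle and 110.2 ± 10.6 in trametinib hearts (SD, n = 3). After the correction 13.7% of all genes were lower and 15.2% higher. Of these 18 genes 7 were then lower and 2 higher. The higher ones were Dusp5 (0.74, limma adjusted p = 0.0493) and Ier3 (0.93, limma adjusted p = 0.0382), named after their values were seen. Dusp6 (516.3 ± 138 and 343.0 ± 111) and Spry4 (314.1 ± 17.0 and 275.9 ± 129) did not pass in limma (adjusted p = 0.102 and 0.458). Without trametinib replicate 3 both passed as lower (limma adjusted p = 0.0355 for Dusp6 and 0.0322 for Spry4). That was the only 1 of the 6 fits leaving out a heart in which either passed. Over these 6 fits the log2 fold change ran from -0.84 to -0.37 for Dusp6 (limma adjusted p up to 0.279). For Spry4 it ran from -0.64 to 0.02 (limma adjusted p up to 0.951).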

How the data were processed

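Messenger RNA of 6 hearts was measured from a stranded kit on a single-end run, per the labels' protocols. Isolation used either of a pair of kits, and which heart had which is not given in the sources used here. Tools listed per the submitters' processing notes, with no step assigned to any, are RSEM, DESeq2, SAMtools and Picard 1.64, and the listed build is mm9. Each deposited value is a gene's normalized signal, scaled by the authors to an upper quartile of 997.851 to 999.464 over values above 0, as the values show. They are not whole: among values under 50 steps, 87.5% to 89.4% fell within 0.05 of a whole multiple of the step of their library, so no count model was used. Estimated reads are totals divided by that step. The table has 1 further library column under its PBS control heading. It matches no sample label, and it was left out. Its library number directly precedes those of the trametinib libraries, while the vehicle libraries form a separate, lower-numbered block. What the numbers stand for is not given in the sources used here, and their part in the values was not tested. Symbols turned into numbers (26) were restored from Entrez identifiers, of which 21562 matched the RefSeq gene table.

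Testing used limma 3.58.1 (R 4.3.3; mean-variance trend) for genes whose mean reached 10, on log2(value + 1), which understates changes of low genes, with Benjamini-Hochberg adjustment over all 13581. Each library came from a separate heart, so p-values measure the spread between hearts. Code was tested on simulated data. Length and GC content were those of RefSeq-linked GENCODE M21 transcripts (97.5% of tested genes), and correction subtracted a lowess curve (span 0.3). Alternatives were 0.5 and 5 as pseudocount, no filter or a mean of 30, the length and GC correction, median-of-ratios or quantile scaling, the replicate number as a block, each heart left out, and voom applied to the estimated reads. The use of all transcripts, of the longest transcript and of block and correction together were added after seeing the data. The members, lists and tests were chosen with earlier results of these data known. The text names the members, Etv5, Dusp6, Spry4, up to 4 genes with the smallest p in each list and the 2 genes most like each changed member, of which some are not reported here.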

Additional observations from a re-analysis of the deposited data

How the results depend on the processing

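Ksr1 and Pebp1 kept direction and call in all 17 alternatives. Sos1 kept its direction in all, and lost its call under the length and GC correction and its variants (0.30, 0.24 with all transcripts, 0.30 with the replicate block as well). Among the members, signs reversed only under that correction and its variants. Map2k2 went to 0.09, to 0.21 with all transcripts and to 0.09 with the replicate block as well, Mapk3 to 0.10, 0.19 and 0.10, Braf to -0.14 (0.05 with all transcripts) and -0.14, and Map2k1 to 0.10 with all transcripts. Median-of-ratios scaling ended the Mapk3 call (-0.17, adjusted p = 0.0613). The correction took members higher from 3 to 1 and lower from 3 to 1, other cascade genes higher from 18 to 8, and all genes lower from 3098 to 1817. With the replicate block as well, members higher and lower were 1 and 1, cascade genes 7 and 6, and all genes 1650 and 1450. The cause was not tested. With any 1 heart left out, genes higher ran from 2145 to 2799 and lower from 2490 to 2856, members higher were 3 and lower 2 to 3, and cascade genes higher ran from 14 to 17 and lower from 7 to 10. The labels give only a shared replicate number, and deviations of same-numbered hearts correlated at 0.238, 0.019 and 0.5. The replicate block changed no member's call and gave 2885 genes higher and 2877 lower, with Mapk3 at adjusted p = 0.0488. Vehicle libraries were the shallower ones, and the effect of depth on these values was not tested.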
